A study of Mus musculus with 4 samples.

Results

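The interleukin-1 (IL-1) family and inflammasome genes examined here were Il1a, Il1b, Il18, Il1rn, Il1r2, Il1rap, Il1rl1, Nlrp3, Casp1 and P2rx7, taken by gene symbol, 10 of the 32285 genes in the deposited tables. They were followed through 4 single-cell RNA libraries of pancreatic ductal adenocarcinoma (PDAC), each from 1 tumour of 1 mouse. All tumours came from KPC46, an organoid line of the KPC model of pancreatic cancer, in mice of the strain B6/129 F1J. A pair of mice had received the vehicle Cremophor, and the other pair TAK-981 (subasumstat), an inhibitor of the enzyme that activates the small protein modifier SUMO. The comparison asked how TAK-981 changed the cells of the tumour, and since all grafts were of a single line the 2 libraries per group measured the spread between mice and not between tumour lines. Dose, schedule, age and sex were not given in the labels.

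IL-1α and IL-1β, the products of Il1a and Il1b, signal through the receptor Il1r1 with its accessory chain Il1rap, and drive neutrophil recruitment and inflammatory fibroblast states in pancreatic tumours. Il1rn encodes a soluble antagonist of that receptor, and Il1r2 a decoy that binds IL-1 without signalling, while Il18 and the Il1rl1 ligand Il33 are related cytokines with receptors on lymphocytes. IL-1β and IL-18 are made as precursors and cut by caspase-1 (Casp1) in the inflammasome, a complex nucleated by sensors such as Nlrp3 and triggered, among other signals, by extracellular ATP acting on the channel P2rx7. Transcript counts report none of this processing, and counts summed per gene do not separate secreted from intracellular forms of Il1rn or soluble from membrane forms of Il1rl1 and Il1rap.

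In the mouse genome (build GRCm38, the assembly also named mm10) Il1b lies on chromosome 2 at 129364570-129371139 and Il1a at 129299610-129309972, both on the minus strand, and Nlrp3 on chromosome 11 at 59541568-59566956 on the plus strand. RefSeq start sites were found for all 10 members, 15 in total, on GRCm38.p6. The 250 bases before a start are printed for Il1b, Il1a and Nlrp3, because Il1a and Nlrp3 had the most similar pattern over cell classes of any pair of members and Il1b carried most of the UMIs. Capitals mark GAGGAA on either strand, the core letters bound by the myeloid factor PU.1.
Il1b, chr2:129371140-129371389, minus strand: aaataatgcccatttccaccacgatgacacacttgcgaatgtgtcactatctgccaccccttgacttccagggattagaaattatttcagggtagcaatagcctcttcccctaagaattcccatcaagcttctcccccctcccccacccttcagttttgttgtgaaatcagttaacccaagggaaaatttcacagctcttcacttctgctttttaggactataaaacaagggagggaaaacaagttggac
Il1a, chr2:129309973-129310222, minus strand: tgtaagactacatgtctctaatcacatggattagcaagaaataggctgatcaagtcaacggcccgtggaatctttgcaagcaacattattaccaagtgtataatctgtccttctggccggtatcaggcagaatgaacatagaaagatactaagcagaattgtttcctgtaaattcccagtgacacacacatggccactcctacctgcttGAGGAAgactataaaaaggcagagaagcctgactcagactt
Nlrp3, chr11:59542436-59542685, plus strand, before the downstream of 2 starts: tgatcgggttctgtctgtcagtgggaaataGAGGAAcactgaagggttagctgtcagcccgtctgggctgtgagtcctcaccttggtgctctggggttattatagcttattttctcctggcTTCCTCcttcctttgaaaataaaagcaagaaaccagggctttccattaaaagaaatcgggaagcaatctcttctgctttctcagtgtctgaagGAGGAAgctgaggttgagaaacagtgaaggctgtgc
GAGGAA occurred 3 times in the Nlrp3 window and 1 time in that of Il1a, and in none of the Il1b window. It occurred in 3 of the 15 members' windows (the other was that of Casp1) and in 23.3% of 32851 windows of equal length before RefSeq starts. The NF-κB letters, GGG and TTTCC parted by any 2 bases, were in 1 member window (Il1rn) and 1.41% of all windows, TTGCNNAA of C/EBP factors in 1 (Il1rl1) and 9.56%, and a pair of GAAA parted by any 2 bases, as in interferon-responsive elements, in 0 and 2.98%. A match of letters is not evidence of binding, and its absence shows only that these letters were not in this window.

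The libraries held 4408 and 4130 cells for vehicle 1 and 2 and 2214 and 3110 for TAK-981 1 and 2, after quality limits. Median depth was 2269, 4152, 5024 and 12830 UMIs per cell and the median mitochondrial share 2.93, 2.71, 6.90 and 5.11%, so both ran higher under TAK-981. Cells were grouped into 23 clusters and named from marker lists, so each class name below means cells resembling that type. 44 cells carried a barcode that also occurred in another library. Libraries of 1 group differed by far more than counting noise, with chi-square per degree of freedom of 162 and 122. The members gave between 284 (Il1rl1) and 78041 (Il1b) UMIs in total.

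Values per class are CPM, a gene's share of all UMIs of that class in a library on the usual counts-per-million scale, after TMM scaling between libraries. Values per cluster and summed marker values are unscaled CPM, without the TMM step. They are given in the order vehicle 1, vehicle 2, TAK-981 1, TAK-981 2. A gene was called when its Benjamini-Hochberg adjusted p in the edgeR quasi-likelihood test was under 0.05 over all genes tested in the class. The members were among the genes used for clustering, so differences of level between classes are descriptions.

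**Figure D1:**
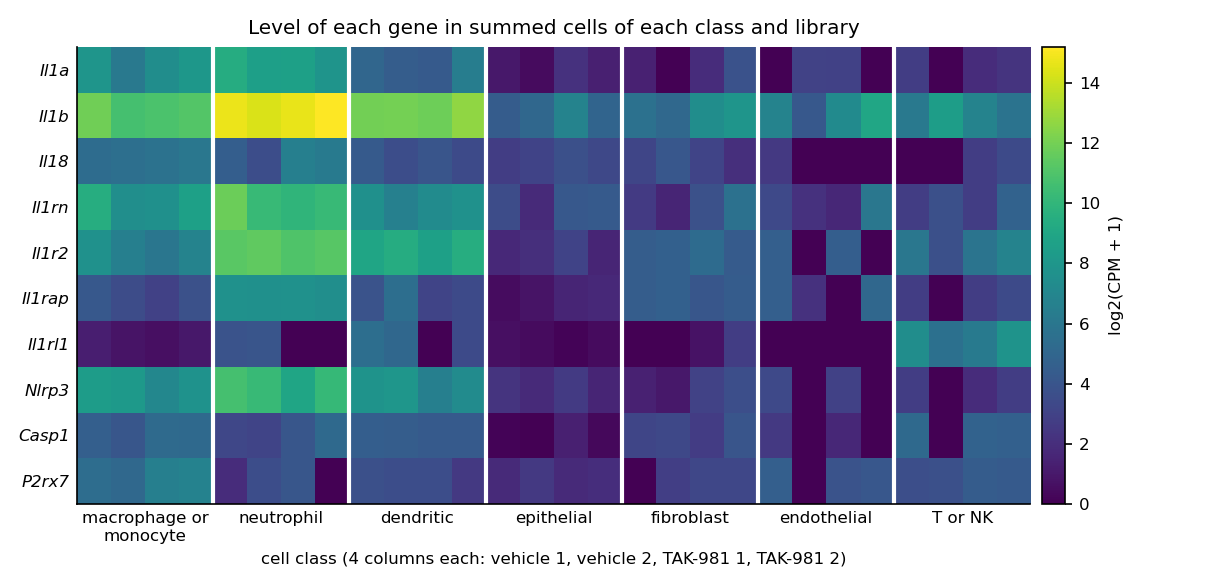
Level of the 10 members, log2(CPM + 1) by colour, with 1 row per gene and 4 columns per cell class in the order vehicle 1, vehicle 2, TAK-981 1, TAK-981 2. Neutrophils held the highest Il1b levels, 20960 to 37620 CPM, and Il1rl1 was highest in T or NK cells, 48.0 to 224 CPM.

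Il1b was a myeloid transcript in all 4 tumours, highest in neutrophils and lower in dendritic cells and macrophages or monocytes. Neutrophils had 27330, 20960, 26950 and 37620 CPM, with groups that overlapped and a log2 fold difference, TAK-981 over vehicle, of 0.42 ± 0.59 (SE, edgeR adjusted p = 0.828). The TAK-981 neutrophil values rest on 39 and 40 cells against 549 and 383 in vehicle. Dendritic cells, which were led by Ccl17, Ccl22 and Ccr7 as in mature dendritic cells, had 3935, 4125, 3661 and 6441 CPM, with the highest value in TAK-981 2 (edgeR adjusted p = 0.675). Their order against macrophages or monocytes was plain in 3 libraries, while in vehicle 1 it turned on the scaling (3164 against 3440 unscaled CPM). In the dendritic sums the 10 neutrophil markers summed to 270, 251, 181 and 1910 unscaled CPM, highest in TAK-981 2 as well. The 7 mast cell markers summed to 398, 0, 0 and 939 there. The part of such RNA in dendritic Il1b was not tested. Macrophages or monocytes had 3833, 1697, 1914 and 2224 CPM. Vehicle 1 stood apart as the high library, the TAK-981 values lay between the 2 vehicle values, and the difference was -0.42 ± 0.41 (edgeR adjusted p = 0.706).

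Within the macrophage class Il1b differed between clusters in every library. The cluster led by Ccr2, Ccl24 and Vcan, of which Ccr2 and Vcan are genes of recruited monocytes, had 4396, 3008, 3741 and 4271 unscaled CPM. The cluster led by Ccl8, Apoe and C1qa, genes of tissue-resident-type macrophages, had 1742, 1244, 1929 and 2078, and that led by Mmp12, Hspa1a and Arg1 had 1703, 877, 1833 and 1465. In every library the Ccr2 cluster was the highest of these 3. It held 60.2, 23.5, 6.56 and 19.1% of the macrophage or monocyte cells, while the Ccl8 and C1qa cluster held 19.7, 55.3, 44.1 and 35.1%. In TAK-981 1 a shallow cluster led by Aif1 held a further 40.5%, so a class total mixes different cells in the groups.

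The classes that held the Il1b RNA also differed between libraries. Such shares depend on cell numbers and depth as well as on level. Neutrophils were 12.45, 9.27, 1.76 and 1.29% of cells, and epithelial cells 17.7, 10.6, 44.7 and 61.1%. Neutrophils held 32.2, 51.0, 10.8 and 10.3% of all Il1b UMIs, a TAK-981 minus vehicle mean difference of -31.0 percentage points. An exact permutation test of 2 against 2 libraries gave p = 0.3333, the smallest it can give. Macrophages or monocytes held 54.5, 40.1, 65.8 and 65.9%, and epithelial cells 0.619, 0.831, 13.7 and 8.23%. The neutrophil shares depend on the depth limit. When at least 1000 UMIs per cell were required they were 8.40, 17.6, 17.4 and 24.3%, the opposite order. Neutrophils were shallow, with medians of 659, 623, 1561 and 1448 UMIs per cell.

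**Figure D2:**
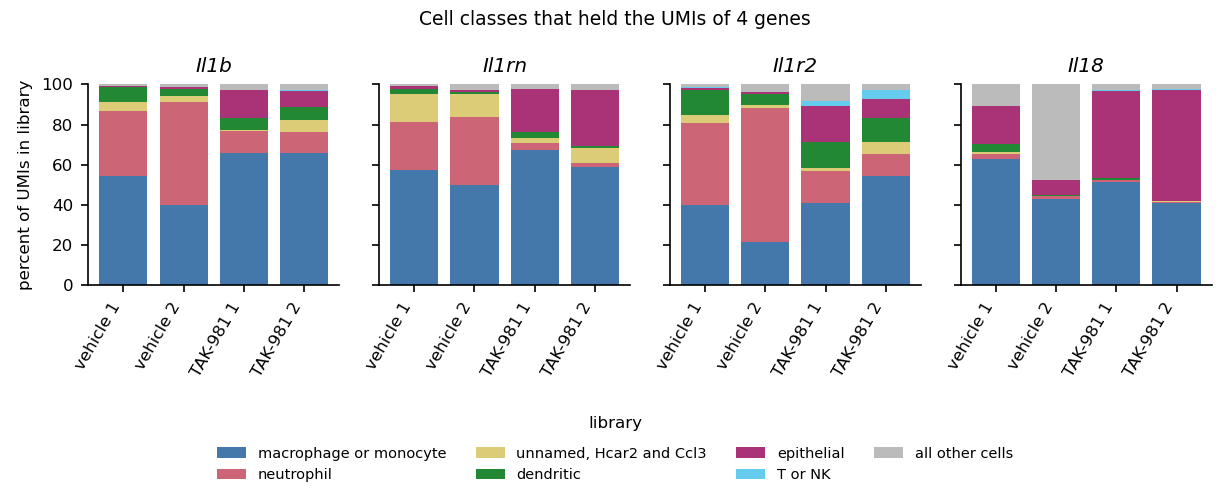
Percent of the UMIs of Il1b, Il1rn, Il1r2 and Il18 held by each cell class (stacked bars, y axis) in each library (x axis). The neutrophil part of Il1b read 32.2, 51.0, 10.8 and 10.3% across vehicle 1, vehicle 2, TAK-981 1 and TAK-981 2, at a limit of 500 UMIs per cell.

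Il1a, whose product is active without inflammasome cutting, was found in neutrophils and in macrophages or monocytes. Neutrophils had 692, 383, 390 and 232 CPM and macrophages or monocytes 247, 69.1, 176 and 267 CPM. Neither class was called on its own (-0.78 ± 0.50, adjusted p = 0.557, and 0.48 ± 0.53, adjusted p = 0.744, edgeR). A joint fit of both classes with library as covariate tested the difference of effect, macrophages or monocytes minus neutrophils. It was 1.94 ± 0.46 (edgeR adjusted p = 0.00871), 1 of 10 members called where 0.367% of 9524 genes were. The spread was pooled over genes here, so the p-value does not measure the spread of Il1a between mice. The median gene had 0.60 in that fit, so the size is not the difference of the class values above. The cause of this shift was not tested. Centred on the median gene, an alternative chosen after seeing the data, the difference was 1.34 ± 0.46 and was not called (edgeR adjusted p = 0.319). With TMM factors from each class alone, where the median was still 0.41, it was 1.75 ± 0.46 (0.0487). The TAK-981 neutrophil values of Il1a were 25 and 13 UMIs, and vehicle 2 was the low macrophage library. The 12 macrophage markers summed to 1979, 1061, 1356 and 1778 unscaled CPM in the neutrophils, and their part was not tested. In macrophages alone the direction turned without that library (log2 -0.16, edgeR adjusted p = 0.876). By cluster, Il1a in the Ccl8 and C1qa macrophages was 118, 59.2, 185 and 237 unscaled CPM, with both TAK-981 libraries above both vehicle libraries.

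Il18 had another distribution, with macrophages and epithelial cells as its main sources. Macrophages or monocytes had 40.1, 46.7, 52.5 and 63.1 CPM, both TAK-981 libraries above both vehicle libraries (0.42 ± 0.22, edgeR adjusted p = 0.468). The highest macrophage values were in the cluster led by Ly6c2, Ifit2 and Rsad2, interferon-induced genes, with 80.0 unscaled CPM in vehicle 1, 202 and 189 in the TAK-981 libraries and 1 cell in vehicle 2. Epithelial cells had 5.79, 7.48, 12.1 and 8.79 CPM (0.68 ± 0.32, edgeR adjusted p = 0.256) and held 19.0, 7.50, 43.6 and 55.0% of Il18 UMIs. In vehicle 2 a cluster led by Prl, with epithelial markers but left unnamed, held a further 38.9% of them. Neutrophil Il18 rested on 8, 3, 6 and 4 UMIs (2.23 ± 0.79, edgeR adjusted p = 0.247). Il18bp, the soluble inhibitor of IL-18, was 6.88, 13.5, 36.2 and 40.8 CPM in macrophages or monocytes (1.97 ± 0.33, edgeR adjusted p = 0.0662), and DESeq2 called it (adjusted p = 0.00103).

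The antagonist Il1rn likewise had its highest levels in myeloid classes, and vehicle 1 was the highest library in neutrophils and in macrophages or monocytes. Of its UMIs, neutrophils held 23.8, 33.9, 3.95 and 1.66%, and epithelial cells 1.81, 0.750, 21.5 and 27.7%. Under TAK-981 epithelial cells thus held more of them than neutrophils did, with 990 and 1899 cells against 39 and 40. The epithelial level there was 17.13 and 19.15 CPM, far below that of neutrophils. Neutrophils had 3523, 1187, 984 and 1196 CPM (-1.11 ± 0.59, edgeR adjusted p = 0.456), and macrophages or monocytes 708, 179, 196 and 393 CPM (-0.59 ± 0.61, edgeR adjusted p = 0.724). In the 3 other libraries the neutrophil values lay within 984 to 1196 CPM, so the fitted difference rests on vehicle 1. Without it the difference was -0.28 in neutrophils and 0.72 in macrophages or monocytes.

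2 clusters with neutrophil markers differed in the balance of agonist and antagonist RNA. The cluster led by G0s2, Cxcr2 and Retnlg had 129, 56.7, 36.5 and 31.8 Il1rn UMIs per 1000 Il1b UMIs. The cluster led by Hcar2 and Ccl3 had 520, 315, 339 and 249, several times more in each library. It was left unnamed because it was shallow and had no neutrophil marker among its 10 leading genes, although all 10 markers were detected. The G0s2 cluster was no deeper, with a median of 656.5 against 702.5 UMIs. The second had less Il1b in every library (9517, 6373, 9140 and 8994 against 25860, 19950, 24890 and 32580 unscaled CPM) and more Il1rn (4948, 2009, 3101 and 2241 against 3325, 1131, 908 and 1036). The TAK-981 1 value of the Hcar2 cluster comes from 7 cells. The interleukin-1 relative Il1f9, the gene now named Il36g, was among that cluster's 10 leading genes.

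**Figure D3:**
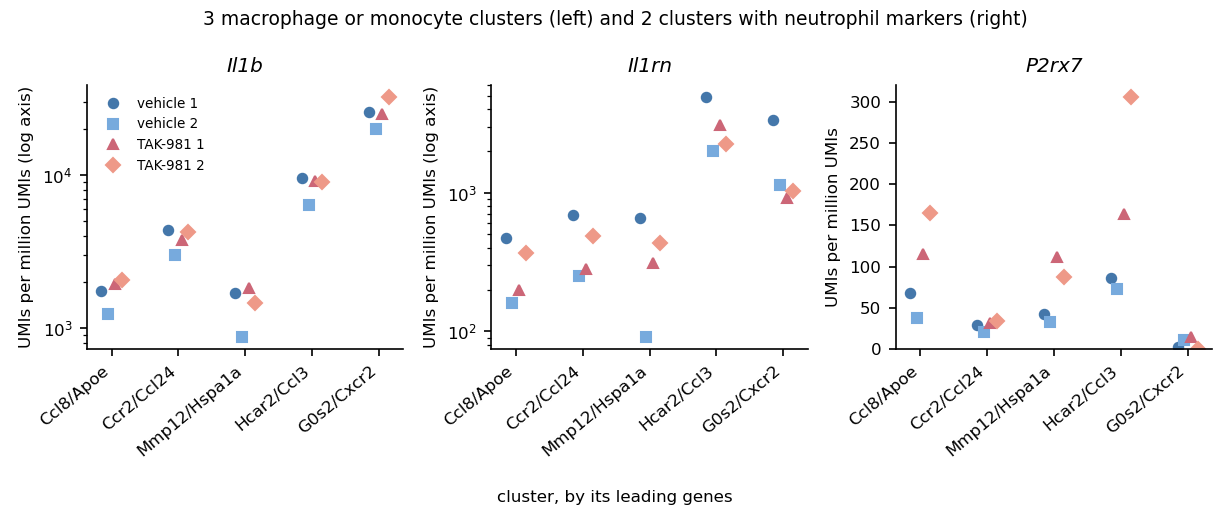
Il1b, Il1rn (log axes) and P2rx7 (linear axis) in unscaled CPM for 3 macrophage or monocyte clusters and 2 clusters with neutrophil markers, 1 point per library. Il1b was highest in the G0s2/Cxcr2 cluster (19950 to 32580) and Il1rn in the Hcar2/Ccl3 cluster (2009 to 4948), and P2rx7 in the Ccl8/Apoe cluster was 67.7, 37.9, 115 and 164 in library order.

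Il1r2, the decoy receptor, had its highest level in neutrophils, with 2540, 2871, 2030 and 2410 CPM, and was among the 10 leading genes of the G0s2 and Cxcr2 cluster. Both TAK-981 values lay below both vehicle values, but the difference of -0.29 ± 0.48 did not pass (edgeR adjusted p = 0.865). Dendritic cells had 490, 671, 394 and 698 CPM and macrophages or monocytes 205, 94.2, 60.9 and 109 CPM, with overlapping groups in each (edgeR adjusted p = 0.954 and 0.449). By number of UMIs macrophages or monocytes held more of it, 2134 against 1946 in neutrophils over the 4 libraries. The order differed by group: neutrophils held 917, 764, 130 and 135 UMIs, and macrophages or monocytes 893, 244, 333 and 664. The ratio of Il1r2 to Il1b in neutrophils was 93.0, 137, 75.3 and 64.1 UMIs per 1000, at an exact permutation p of 0.3333, the smallest possible.

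Among receptor chains, Il1rap in neutrophils was 208, 195, 203 and 179 CPM (-0.08 ± 0.46, edgeR adjusted p = 0.972). The TAK-981 values rest on 13 and 10 UMIs, too few to show an unchanged level. Fibroblasts had 21.3, 24.7, 15.9 and 20.5 CPM, and macrophages or monocytes 17.4, 10.4, 6.58 and 12.7. The signalling receptor Il1r1 had its highest level in fibroblasts, with 143, 121, 93.9 and 93.3 CPM (-0.49 ± 0.28, edgeR adjusted p = 0.622), against 15.2, 14.6, 16.6 and 16.7 CPM in epithelial cells. Macrophages had at most 1.61 CPM of it in any library. By number of UMIs the epithelial cells held most of Il1r1, 1487 against 491 in fibroblasts over the 4 libraries, and in vehicle 2 the Prl cluster held 52.2%.

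Il1rl1, the receptor of IL-33 also named ST2, was the 1 member led by lymphocytes. T or NK cells had 175, 48.0, 75.0 and 224 CPM from 30, 4, 26 and 118 UMIs, with overlapping groups (0.31 ± 0.58, edgeR adjusted p = 0.871). A UMI of it was found in 9.49, 2.90, 14.5 and 21.2% of these cells. Of the 58 T or NK cells with an Il1rl1 UMI, 43.1% also had a UMI of Foxp3, the regulatory T cell factor, and 60.3% of Gata3. The 384 cells without it had 7.29 and 14.6%. The median depths were 2180 and 1624 UMIs. By library the Foxp3 share was 46.7, 50, 20 and 48.4% of 15, 2, 10 and 31 cells with Il1rl1, against 9.79, 4.48, 8.47 and 5.22% of those without. Gata3 was in 80.0, 0, 60 and 54.8% of the former and 9.09, 7.46, 20.3 and 22.6% of the latter, so vehicle 2 with its 2 cells was the exception. In vehicle 2 and TAK-981 1 the cells with Il1rl1 were the shallower set. Il33 was in fibroblasts at 357, 119, 182 and 177 CPM and in epithelial cells at 145, 15.7, 46.7 and 78.8, not called in either (edgeR adjusted p = 0.821 and 0.80). Il18r1, a chain of the IL-18 receptor, was highest in T or NK cells, with 198, 36.0, 54.8 and 104 CPM (edgeR adjusted p = 0.639).

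The inflammasome genes of macrophages did not move in one direction. Nlrp3, the sensor, was 330, 284, 133 and 217 CPM (-0.82 ± 0.29, edgeR adjusted p = 0.310). Both TAK-981 values were below both vehicle values. The same order held in neutrophils (1653, 1199, 484 and 1178 CPM, adjusted p = 0.589) and in dendritic cells (218, 249, 93.9 and 163 CPM, adjusted p = 0.319, edgeR). The 3 classes come from the same 4 mice, so they are not 3 separate observations. Within macrophages the order did not hold by cluster: the Ccr2 cluster had 353, 337, 186 and 358 unscaled CPM and the Ccl8 and C1qa cluster 190, 267, 139 and 213.

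P2rx7, the ATP-gated channel, was 42.7, 34.4, 92.3 and 106 CPM in macrophages or monocytes. The groups were well apart (1.36 ± 0.22, or 186 and 89 against 505 and 642 UMIs), yet the edgeR adjusted p was 0.0645, and DESeq2 called it (adjusted p = 0.0018). A P2rx7 UMI was found in 10.8, 9.26, 31.8 and 42.5% of them, at median depths of 2848, 3198, 5147 and 7458 UMIs. With every cell scaled to 500 UMIs the expected shares were 1.84, 1.74, 4.40 and 5.85%. Macrophage markers in the same sums were also higher under TAK-981, at 14330, 18470, 28990 and 22670 unscaled CPM. Neutrophils, where 5 P2rx7 UMIs were counted in all, had at most 0.455% at that depth. By cluster, the Ccl8 and C1qa macrophages had 67.7, 37.9, 115 and 164 unscaled CPM (log2 difference 1.28, edgeR adjusted p = 0.0891). The Ccr2 cluster had 29.0, 20.6, 31.8 and 34.2, where the log2 difference was 0.06 (edgeR adjusted p = 0.955). The unnamed Hcar2 and Ccl3 cluster had 86.3, 73.0, 163 and 306, the TAK-981 1 value from 2 UMIs.

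Casp1, the inflammasome protease, was 23.4, 15.4, 37.3 and 35.6 CPM in macrophages or monocytes, with both TAK-981 libraries higher (0.89 ± 0.26, edgeR adjusted p = 0.229). In the Ly6c2, Ifit2 and Rsad2 cluster it was 131 and 127 unscaled CPM under TAK-981, and 32.0 in vehicle 1. That cluster held 1.82, 0.122, 2.83 and 14.0% of the class. Casp1 was also higher in both TAK-981 libraries in every other cluster of the class. The Ccr2 cluster had 23.8, 19.1, 38.4 and 35.8 unscaled CPM, and the Ccl8 and C1qa cluster 16.9, 13.3, 39.15 and 23.9. The Mmp12 cluster had 13.4, 11.6, 21.4 and 20.2. The Aif1 cluster had 16.1, 17.8, 41.7 and 89.6, from 2 and 1 UMIs in vehicle. Pycard, the adaptor between sensor and protease, was 317, 362, 388 and 347 CPM in macrophages (edgeR adjusted p = 0.878), and Gsdmd, the pore protein cut by caspase-1, was 33.7, 39.8, 51.4 and 43.6 (edgeR adjusted p = 0.512).

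Counted together, 9 of the 10 members were tested in macrophages or monocytes and 0 were called, against 0.0% of 10651 genes. By unadjusted p under 0.05 there were 3 (P2rx7, Casp1 and Nlrp3), against 13.2% of all genes, and DESeq2 called 1 member among 264 genes. Of the 9, 4 had a fitted difference above 0 and 5 below, with a median of -0.42 against 0.0016 over all genes. In neutrophils 7 were tested and 0 called, against 0.476% of 2311 genes (edgeR; 0 by DESeq2, and 1 by unadjusted p against 13.7% of genes). In dendritic cells 4 were tested and 0 called, against 4.15% of 3349 genes (0 by DESeq2, and 1 by unadjusted p against 14.6%). In T or NK cells 3 were tested and 0 called, against 0.166% of 4226 genes (0 by DESeq2, and 0 by unadjusted p against 13.2%). By unadjusted p the neutrophil count, 1 of 7, was near the share over all genes. The macrophage count, 3 of 9, was above it but rests on 3 genes. The dendritic and T or NK counts, 1 of 4 and 0 of 3, are too small to compare. In T or NK cells Il1b was 70.0, 348, 113 and 55.1 CPM, and its log2 difference without vehicle 1 was -2.04.

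**Figure D4:**
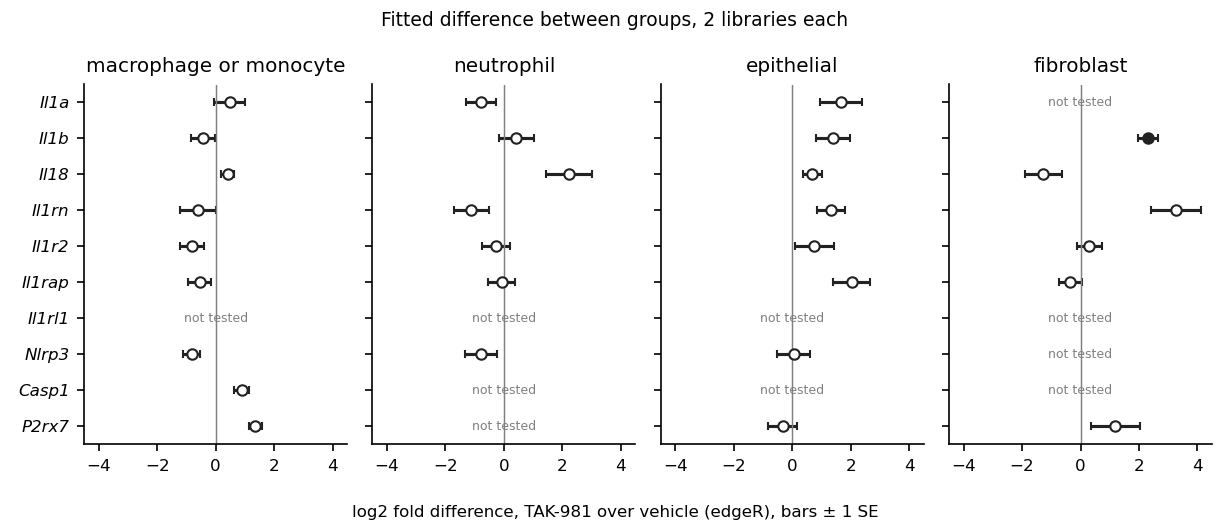
Fitted log2 fold difference, TAK-981 over vehicle, with ± 1 SE (x axis) for each member (y axis) in 4 classes, 2 libraries per group. The filled point, Il1b in fibroblasts at 2.30 ± 0.35, is the only member with an edgeR adjusted p under 0.05, and open points did not pass.

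Il1b in fibroblasts was the 1 member called, among 6 tested there, where 0.992% of 8976 genes were called. Fibroblast sums had 50.8, 33.6, 172 and 239 CPM, from 31, 34, 249 and 373 UMIs, and Il1b was higher under TAK-981 (2.30 ± 0.35, edgeR adjusted p = 0.0313). These UMIs were in few cells: 9 of 105, 5 of 227, 17 of 76 and 14 of 104 fibroblasts had any, and the top 5 cells of each library held 87.1, 100, 85.9 and 86.6%. RNA of myeloid cells was higher in the same TAK-981 fibroblast sums. S100a9 was 2.97, 9.85, 19.2 and 103 unscaled CPM, Lyz2 19.3, 10.7, 436 and 89.6, and C1qb 2.97, 2.69, 202 and 36.2. All 12 macrophage or monocyte markers had UMIs there, summing to 96.6, 96.7, 1141 and 273 unscaled CPM with 7 higher in both TAK-981 libraries, and all 10 neutrophil markers summed to 75.8, 82.4, 176 and 425. No marker of either list was at 0 in all 4 libraries. Csf1r was 14.9, 11.6, 37.6 and 11.6, Csf3r 1.49, 4.48, 3.69 and 7.52, and Retnlg 1.37 or lower.

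In fibroblasts with no UMI of 7 such genes (Lyz2, C1qa, C1qb, Csf1r, S100a8, S100a9 and Csf3r), a set chosen after seeing the data, Il1b was 8.67, 3.41, 8.68 and 24.0 unscaled CPM, from 4, 3, 3 and 16 UMIs in 81, 190, 30 and 56 cells. The groups then met, TAK-981 1 being at the level of vehicle 1, and the gene was too low to be tested. The share of fibroblasts with an Il1b UMI was 8.57, 2.20, 22.4 and 13.5%, against 7.59, 4.35, 7.25 and 6.16% of T or NK cells, at median depths of 5707, 4286, 16090 and 13160 against 1216, 1096, 3304 and 2611 UMIs. The call was lost without vehicle 2 (2.01, edgeR adjusted p = 0.0869), without TAK-981 1 (2.52, 0.270) and without TAK-981 2 (2.04, 0.346), while the fitted log2 difference stayed between 1.79 and 3.08 in the 13 alternatives fitted. Il1rn in fibroblasts was 4.91, 1.98, 12.4 and 49.9 CPM (3.28 ± 0.85, edgeR adjusted p = 0.151) from 3, 2, 18 and 78 UMIs.

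**Figure D5:**
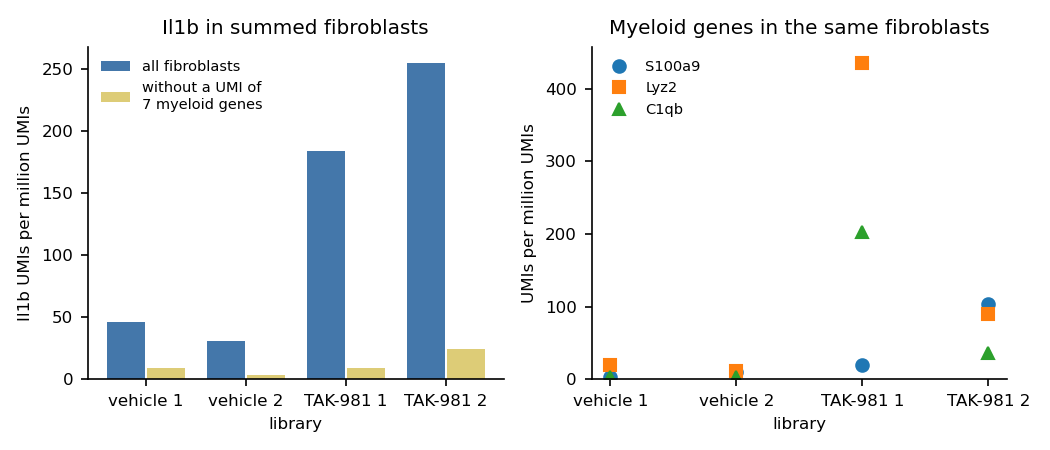
Left, Il1b unscaled CPM in all fibroblasts and in those without a UMI of 7 myeloid genes (bars, per library); right, S100a9, Lyz2 and C1qb in all fibroblasts. Over all fibroblasts Il1b was 46.1, 30.4, 184 and 255 unscaled CPM, and in the restricted cells 8.67, 3.41, 8.68 and 24.0.

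In epithelial cells 8 members were tested and 0 called, against 4.68% of 12331 genes (edgeR; 0 by DESeq2, and 3 by unadjusted p against 23.3% of genes). 7 of the 8 had a fitted difference above 0, with a median of 1.03 against 0.020 over all genes. Il1rn was 10.6, 2.49, 17.1 and 19.2 CPM (1.32 ± 0.49, edgeR adjusted p = 0.157), Il1rap 0.437, 0.713, 1.95 and 2.34 (2.03 ± 0.65, 0.115) and Il1b 20.8, 32.4, 109 and 28.9 (1.40 ± 0.57, 0.194). Il1b thus was high in TAK-981 1 alone, the library in which macrophage markers in epithelial sums were also highest, at 160, 134, 700 and 201 unscaled CPM; their part in the result was not tested. Of the epithelial Il1rn UMIs of TAK-981 2, 706 of 1119 were in a cluster led by Tff2 and Tff1, secreted trefoil proteins of gastric-type epithelium, at 81.0 unscaled CPM. In TAK-981 1, 253 of 343 were in the cluster led by Ttr and Cxcl5, at 19.6 unscaled CPM. The Tff2 cluster held 2, 1, 14 and 381 cells and the Ttr cluster 56, 14, 434 and 757. Over the 14 alternatives fitted, the epithelial log2 difference ranged from 0.76 to 2.87 for Il1rn and from -0.44 to 2.42 for Il1b.

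The epithelial class differed in its clusters between groups and left out the Prl cluster, which held 212, 1512, 36 and 44 cells. The test of macrophage against epithelial effects called 0 of 9 members, against 0.0% of 12260 genes (3 by unadjusted p, against 11.5% of genes). Of the endothelial members only Il1b was tested and 0 were called, against 1.82% of 4680 genes (0 by DESeq2, and 1 by unadjusted p against 16.1%). It was 112, 17.2, 151 and 509 CPM (2.34 ± 0.75, edgeR adjusted p = 0.162), beside macrophage markers of 167, 318, 1476 and 1140 unscaled CPM in the same sums. The log2 difference was 4.12 without vehicle 1, and ranged from 1.23 to 4.12 over the 12 alternatives fitted.

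Over all cells of a tumour, all 10 members were tested and 0 called by edgeR, against 0.0% of 14485 genes (2 members by unadjusted p, against 14.5% of genes). DESeq2 called 2, Il1r2 and Nlrp3, among 777 genes. Il1r2 was 111, 49.3, 27.8 and 18.5 CPM (-1.80 ± 0.46, edgeR adjusted p = 0.227, DESeq2 0.00472). Nlrp3 was 119, 49.1, 31.1 and 24.4 CPM (-1.60 ± 0.46, edgeR adjusted p = 0.250, DESeq2 0.0177). In such totals fewer cells of a type and less RNA per cell cannot be told apart, and neutrophils, which held 40.9, 66.8, 16.1 and 11.0% of Il1r2 UMIs, were 12.4, 9.27, 1.76 and 1.29% of cells. Il1b was 1520, 472, 546 and 309 CPM with overlapping groups (edgeR adjusted p = 0.433).

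The other 68 genes of the pathway gave few calls. The IL-1 response list, 22 chemokines, cytokines and feedback genes, had the most: 1 of 14 tested higher in neutrophils, 1 of 10 in dendritic cells, 1 of 22 in epithelial cells, 2 of 19 in fibroblasts and 1 of 10 in endothelial cells, and 0 lower in any. The shares of all genes called there were 0.476, 4.15, 4.68, 0.992 and 1.82%, so the epithelial count was at the background and the others rest on 1 or 2 genes. Its medians were -0.61, 0.0007, 0.37, 0.29 and 0.036 on the log2 scale in these classes, against -0.0022, 0.042, 0.020, 0.0013 and 0.014 over all genes. Ccl2, the monocyte attractant, rose in neutrophils (13.8 and 15.0 to 219 and 161 CPM, 3.67 ± 0.59, edgeR adjusted p = 0.0385) and dendritic cells (18.8 and 21.6 to 259 and 287, 3.79 ± 0.40, 0.0035). It also rose in endothelial cells (4.66 and 27.5 to 237 and 226, 3.70 ± 0.56, 0.0136), where macrophage markers were higher too.

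The neutrophil Ccl2 sums were 5, 4, 14 and 9 UMIs. Macrophage markers in dendritic cells summed to 1311, 1357, 3952 and 2366 unscaled CPM, and macrophages had 694, 756, 867 and 1733 CPM of it. In fibroblasts Mmp3, a matrix metalloproteinase, rose (29.5 and 27.7 to 96.0 and 223 CPM, 2.48 ± 0.45, edgeR adjusted p = 0.0431), as did the chemokine Cxcl3 (14.7 and 3.96 to 80.8 and 68.4, 3.13 ± 0.51, 0.0356). Mmp3 had no UMI in neutrophils or dendritic cells and 3 or fewer in any macrophage sum, while Cxcl3 was 4501, 1627, 4247 and 10710 CPM in neutrophils. In epithelial cells Mmp3 rose from 0 and 0 to 37 and 136 UMIs (edgeR adjusted p = 0.0311).

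The inflammasome list of 23 genes had 1 called of 17 tested in epithelial cells and 0 elsewhere, close to the 4.68% of all genes called there, and its median was 0.60 (0.020 over all genes). The called gene was Pycard, which rose from 1.53 and 2.49 to 9.49 and 7.92 CPM (2.21 ± 0.42, edgeR adjusted p = 0.0297). In TAK-981 1 this stood beside the macrophage marker sum of 700 unscaled CPM given above, and macrophages had 317 to 388 CPM of Pycard; the part of such RNA was not tested. Gsdmd in epithelial cells was 26.0, 32.1, 78.6 and 51.6 CPM (1.17 ± 0.28, edgeR adjusted p = 0.0583). The lists of other ligands, other receptors and receptor signalling had 0 called in every class, with 11 of 11 signalling genes tested in macrophages at a median of -0.12.

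Across 20 sums of library and class, the genes whose log2(CPM + 1) was most like each member were ranked by Pearson r, as a description, since the sums share libraries and depth. Il1a was followed most closely by Bcl2a1a (r = 0.985) and Nlrp3 (0.976). For Il1b they were Clec4d (0.978), Trem1 and Cxcl2 (0.975 each), for Il1rn Ifitm6 (0.970), AI839979 and Trpm2, and for Il1r2 Pim1 (0.976), Nfkbia and Csrnp1. Nlrp3 was most like Cd300lf (0.982), Il1rl1 was most like Cd6 (0.959) and Rhof, and P2rx7 like Cd38 (0.878), Atp13a2 and H2afy. Il1rap (Map2k4, 0.934), Casp1 (Slfn5, 0.922) and Il18 (Atrnl1, 0.909) had lower values.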

How the data were processed

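The authors deposited UMI counts per gene and barcode, from 10x 3′ v3.1 libraries per the labels' protocols. The submitters' processing notes name Cell Ranger 6.1.2 and mm10. The strand used in counting was not given in the sources used here, and antisense genes overlap Il1a, Il1b, Il1r2, Il1rap and Il18 (at most 110 UMIs each). Kept barcodes had 500 UMIs or more, 250 genes or more and 20% mitochondrial UMIs or less; Scrublet doublets were removed at 0.8% per 1000 cells. Scanpy 1.11.5 clustered the cells (2000 variable genes, 30 components, 15 neighbours, Leiden resolution 1). A cluster was named from a marker list with at least 3 markers detected in 10% of its cells; lists with fewer were barred after a first naming had been seen.

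UMIs were summed per library and class (at least 30 cells per library, 15 for dendritic and endothelial cells) and tested with edgeR 4.0.16 in R 4.3.3 (filterByExpr, TMM); DESeq2 1.42.0 was an alternative. The scripts were checked on simulated counts. Where an alternative leaves 1 library in a group, that library is assumed to vary like the other group. P-values measure the spread of 2 mice per group, with information shared between genes. In the joint fits of macrophages and neutrophils that spread was pooled over genes, and is not that of the single gene. Shares carry exact 95% binomial intervals that cover counting error only. Members and lists were chosen with earlier results of these data known; named pathway genes were those called, plus Il1r1, Il18r1, Il18bp, Il33, Pycard and Gsdmd. Columns not used numbered 0.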

Additional observations from a re-analysis of the deposited data

Results flagged for a closer look

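A joint edgeR fit of both myeloid classes called the difference of the effect of TAK-981 on Il1a, macrophages or monocytes minus neutrophils, a test of the difference itself, at 1.94 ± 0.46 log2 units (adjusted p = 0.00871). The median gene had 0.60 in the same fit. Centred on the median gene the difference was 1.34 ± 0.46 and was not called (adjusted p = 0.319). It was called with TMM factors from each class alone (1.75, adjusted p = 0.0487), with no filter on low counts (1.83, 0.0434) and with members and pathway genes left out of clustering (1.88, 0.00730), fits in which the median gene stood at 0.41, 0.61 and 0.54. The neutrophil values under TAK-981 rest on 25 and 13 UMIs from 39 and 40 cells. All these fits pooled the spread over genes, so their p-values do not measure the spread of Il1a between mice.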

How the results depend on the processing

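Of 635 values of 48 member results under the alternatives, 567 kept direction and side of the threshold, 6 lost the call (all Il1b in fibroblasts), 21 gained it and 41 changed sign; none changed sign with RLE factors in place of TMM, with DESeq2 or without the filter on low counts. The cause was not tested except where the alternative itself shows it.

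With no filter on low counts 2 members were called in each of macrophages, epithelial cells, fibroblasts, the whole tumour, dendritic and endothelial cells together, and the test of macrophage against epithelial effects; the shares of all genes called there were 4.01, 9.25, 2.51, 2.71, 1.84 and 2.66 (dendritic and endothelial) and 1.22%. DESeq2 called 1 in macrophages and 2 in the whole tumour, against 2.48 and 5.36% of genes. Centred on the median gene, the test of macrophage against neutrophil effects called 0. In fibroblasts 0 were called with at least 1000 UMIs per cell, without doublet removal, or in cells without a UMI of 7 myeloid genes; Il1b was 1.87 and 1.79 in the former, and too low to test in the last. Fits that leave out a single library have 1 library in a group, so their calls per class are not listed here.

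The replicate number is only a label here, since same-numbered libraries did not deviate together (correlations of deviations between -0.235 and 0.068). With it as a block 0 members were called in fibroblasts, and whole-tumour Il1a was 0.063. With the crossed pairing, chosen after seeing the data, 1 member was called in macrophages, 1 in epithelial cells, 2 in fibroblasts and 1 in dendritic and endothelial cells, against 2.68, 8.59, 1.89 and 8.87 and 4.21% of genes, and whole-tumour Il1a was 0.058 and epithelial Nlrp3 -0.13.

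Other changes of sign were of uncalled values. At 1000 UMIs per cell the neutrophil share of Il1b UMIs differed by 7.80 percentage points, since the limit removed most vehicle neutrophils; P2rx7 in epithelial cells was 0.64, Il1r2 in dendritic cells 0.049 and Il1b in neutrophils -0.33. The difference in the expected share of neutrophils with an Il1b UMI was 10.7 points at 1000 UMIs per cell. At 10% mitochondrial UMIs epithelial P2rx7 was 0.30 and dendritic Il1r2 0.073. With best-scoring cluster names epithelial P2rx7 was 0.84. In the C1q cluster alone Il1b was 0.29 and Il1r2 0.045, and in the Ccr2 cluster Il1rap was 0.27 and Il18 -0.26. With members and pathway genes left out of clustering dendritic Il1r2 was 0.016 and epithelial Il18 -0.17. Without doublet removal epithelial Il1b was -0.44, Il1r2 -1.14 and Nlrp3 -0.81.

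Leaving out 1 library gave log2 ranges that crossed 0 for Il1a in macrophages (-0.16 to 1.68) and the whole tumour (-1.14 to 1.30), for Il1b in macrophages (-0.90 to 0.29), neutrophils (-0.0042 to 0.69), dendritic (-0.13 to 0.64) and T or NK cells (-2.04 to 0.22), and for Il1rn in macrophages (-1.27 to 0.72), dendritic cells (-0.16 to 0.90) and the whole tumour (-2.20 to 0.52). The same held for Il1r2 in dendritic (-0.52 to 0.26), epithelial (-0.46 to 1.40) and fibroblast sums (-0.27 to 0.70), Il1rl1 in T or NK cells (-0.73 to 1.71) and the whole tumour (-1.17 to 1.44), Nlrp3 (-0.75 to 0.53) and P2rx7 (-0.76 to 0.10) in epithelial cells, and Casp1 in the whole tumour (-0.13 to 1.504). Endothelial cells could not be fitted at 10% mitochondrial UMIs, with 14 cells in TAK-981 2. Depth limits Casp1 and P2rx7 in neutrophils (8 and 5 UMIs) and 6 of 10 members in dendritic cells, which were too low to test.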
